A study of Mus musculus with 6 samples.

Results

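The Wnt signalling genes described here are the secreted Wnt proteins, their receptors, the extracellular proteins that block or enhance them, and the core of the pathway inside the cell, measured in hearts of mice with floxed PHD2 and PHD3 alleles, with and without Cre. They were taken by symbol: genes named Wnt, Fzd, Sfrp, Dkk, Rspo or Dvl followed by a number (an antisense transcript, Fzd10os, was not counted), together with Frzb, Wif1, Ror1, Ror2, Lrp5, Lrp6, Axin1, Axin2, Lef1, Tcf7, Tcf7l1, Tcf7l2, Ctnnb1 and Porcn. This gave 58 genes on 69 probes, out of 20128 genes with a symbol and 55608 distinct probes on the arrays. The rule by symbol used no measured value, but it was set with earlier results of these data known. RNA from whole hearts was hybridised in 1 colour (Cy3) to Agilent mouse arrays, 1 array per heart. All mice were C57/B6, 8 weeks old and homozygous for floxed PHD2 and PHD3 alleles (PHD2/3f/f). The 3 control hearts carried no Cre (PHD2/3f/f; Cre-/-) and the 3 hearts called KO-labelled below carried it (PHD2/3f/f; Cre+/-), and the labels call the replicates biological. They name neither the promoter that drives Cre nor an inducer, a sex or the deleted exons, and they give a tissue column kit and a blood RNA kit with globin removal for the same RNA. The series title asks how PHD2 and PHD3, oxygen-dependent prolyl hydroxylases, act on thyroid hormone receptor alpha and phospholamban in the heart.

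Wnt proteins are lipid-modified ligands that bind Frizzled receptors. With an LRP5 or LRP6 co-receptor they keep beta-catenin from destruction, so that it enters the nucleus and works with TCF and LEF factors. Other Wnt proteins, among them Wnt5a, act largely without beta-catenin through Frizzled and ROR receptors. Secreted Frizzled-related proteins and Wif1 bind Wnt proteins outside the cell, Dickkopf proteins act on the LRP co-receptors, and R-spondins strengthen the signal. In the adult heart the pathway is quiet, and it is known to be taken up again by fibroblasts and other non-muscle cells during remodelling.

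The signal of every spot was expressed as log2 after subtraction of the array's own 75th percentile, and these are the levels given below. Levels of different genes come from different probes and are not compared with each other. A gene was called higher or lower at an adjusted p under 0.05 in limma's moderated test (2-sided, Benjamini-Hochberg over all features). With 3 arrays a group precision is limited: exact permutation of the labels for 1 gene gives p = 0.1 at best. The Egln1 transcript (PHD2) was lower in KO-labelled hearts (log2 difference -1.23) and the Egln3 transcript (PHD3) was higher (1.98), which goes against its label at face value. Where these probes lie relative to the deleted exons is not known, so the groups are called by their labels. Of 20020 features tested, 7820 were called (39.1%), 3216 higher (16.1%) and 4604 lower (23.0%). The call count fell to 3987 without control replicate 1, 4122 without control replicate 3 and 5142 without KO-labelled replicate 3. Cyclic loess and spike-in scaling moved the median difference of all features by 0.14 and 0.24, and the share of calls that were higher from 41.1% to 55.3% and 60.4%. Heart muscle markers lay well above background on every array. Control replicate 2 stood apart in its epicardial and mesothelial markers (a summed signal of 54.2 times the array's 75th percentile, against 8.81 and 10.7 in the other controls and 25.2 to 40.3 in KO-labelled hearts). KO-labelled replicate 2 stood apart in its lymphocyte markers (16.2, against 5.82 to 7.76 in the other 5 hearts) and adipocyte markers (533, against 110 to 340).

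Of the 58 Wnt pathway genes, 33 were tested because a probe was well above background throughout the control arrays, the KO-labelled arrays or both, and the other 25 were not. Of the tested genes 8 rose and 2 fell, which is 30.3% against 39.1% of all features. Over the 19 alternatives the share called among these genes ran from 13.8% to 69.7%, above the share of all features in 8 and below it in 11. The genes that rose were Sfrp1, Sfrp2, Frzb, Fzd1, Fzd2, Fzd3, Ror2 and Dvl2, and those that fell were Wif1 and Wnt5a. The median log2 difference was 0.20 for the tested genes and -0.11 for all features, and it was -0.02 with normexp background correction and -0.03 without control replicate 1. The 2 groups of hearts did not overlap for 10 genes that were higher (background 22.7%) and 5 that were lower (background 33.1%), in all 45.5% of the tested genes against 55.9% of features. All 10 called genes lay well above background on all 6 arrays, so none entered the test through 1 group alone. Without control replicate 1 the counts were 6 and 1. In whole-heart RNA, fewer cells of a type and less RNA per cell cannot be told apart, here or in any result below.

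**Figure D1:**
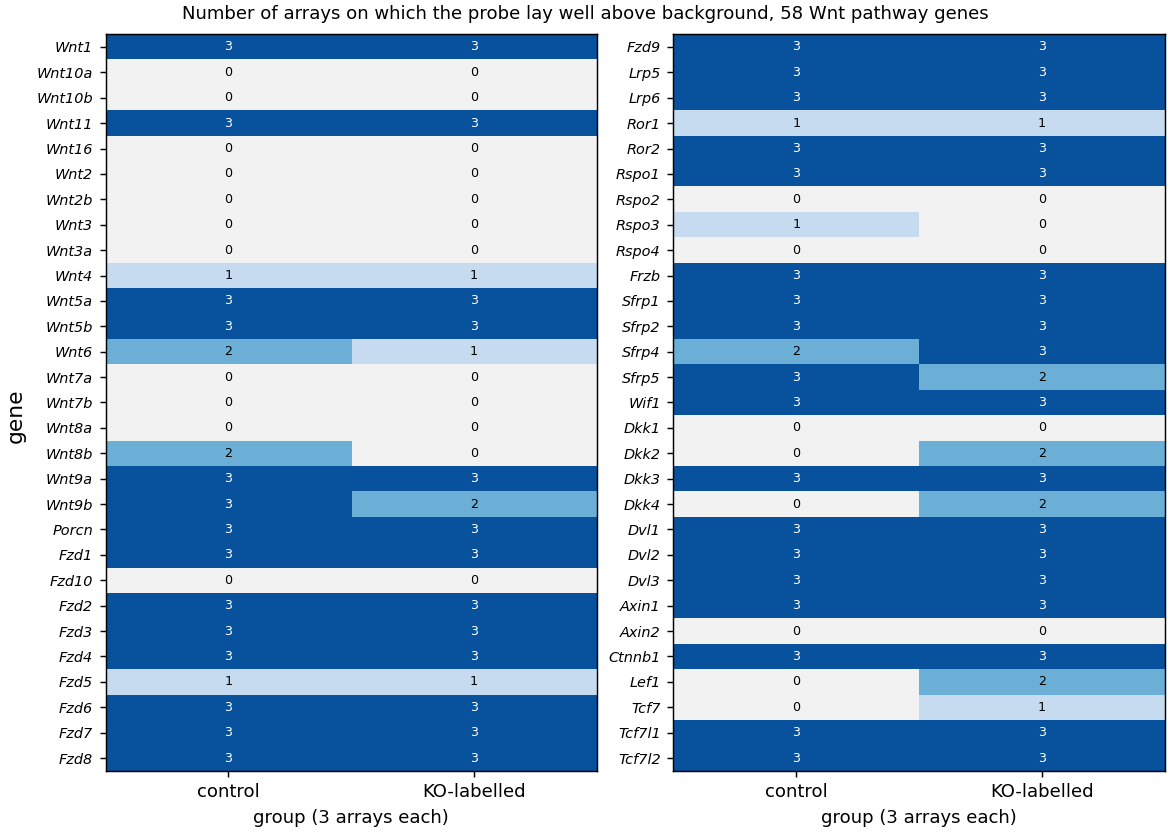
For each of the 58 genes (rows), the number of arrays out of 3 on which its probe lay well above background, in control hearts (left column of each panel) and KO-labelled hearts (right column). Most Wnt ligands sit at 0 in both groups, while 8 of 10 Frizzled receptors sit at 3.

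Among the ligands, the signal was narrow. Of 19 Wnt genes, 6 were tested (Wnt1, Wnt5a, Wnt5b, Wnt9a, Wnt9b and Wnt11), and 10 lay above background on no array at all, including Wnt2, Wnt3, Wnt3a and Wnt10b. Wnt1 rests on 1 of its 2 probes. The other, for the same transcript, was above background on no array, so the presence of Wnt1 is uncertain. Wnt5a, the prototype of the beta-catenin-independent ligands, was the only ligand called (1 of 6 tested; all features, 16.1% higher and 23.0% lower). Its level was 0.61, 0.33 and 0.60 in control hearts, against -0.76, -0.21 and -0.52 in KO-labelled ones. Every KO-labelled heart lay below every control, which held for 33.1% of all features (22.7% for the reverse). The group mean of Wnt5a was 2.01-fold lower (-1.01 ± 0.18 SE on the log2 scale, adjusted p = 0.00726). It passed under all 19 processing alternatives, with log2 differences from -1.15 to -0.76. Its close relative Wnt5b went the other way without passing. It stood at 1.41, 1.65 and 1.44 in control hearts, against 2.32, 1.81 and 1.91 in KO-labelled ones. The groups did not overlap, but the difference of 0.51 ± 0.17 SE just missed the threshold (adjusted p = 0.0505) and passed it under 8 of 19 alternatives. Wnt9a was 0.39, 0.43 and 0.37 in control hearts, against 0.23, -0.02 and 0.01 in KO-labelled ones, lower in every heart (-0.32 ± 0.12 SE, adjusted p = 0.0696). Wnt11, Wnt1 and Wnt9b did not pass, with 95% intervals of -0.48 to 0.54, -0.62 to 0.12 and -1.30 to 1.72. Wnt9b was above background on 3 control arrays and 2 KO-labelled ones, so it entered the test through the controls alone. Porcn, the enzyme that attaches the lipid which Wnt proteins need for secretion, was higher in each KO-labelled heart than in any control and did not pass (0.41 ± 0.15 SE, adjusted p = 0.0713).

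Among the receptors, Fzd1, Fzd2, Fzd3 and Ror2 rose. Of 10 Frizzled genes 8 were tested, 3 rose, none fell and 5 did not pass, a count of calls near the 39.1% of all features (16.1% higher). Fzd2, a receptor for Wnt5a among other ligands, was at 0.24, 1.14 and 0.39 in control hearts, against 2.89, 2.18 and 2.56 in KO-labelled ones. The lowest KO-labelled heart thus lay above the highest control, a 3.87-fold rise (1.95 ± 0.29 SE on the log2 scale, adjusted p = 0.00480). Its other probe was above background on each of the 3 KO-labelled arrays and on 0 of 3 from controls. It thus entered the test through the KO-labelled arrays alone, and its p is not used as further support. It was at least 4.50-fold higher (group means -1.75 and -4.20). For this bound, a control signal under the lowest signal called above background on its array was raised to that signal. Fzd1, a related Frizzled receptor, stood at -0.02, 0.58 and -0.11 in control hearts, against 1.42, 1.26 and 1.46 in KO-labelled ones. This was a 2.35-fold rise (1.23 ± 0.20 SE, adjusted p = 0.00624), with KO-labelled hearts closer together than controls. Fzd3, known from axon guidance and planar polarity, rose from -2.69 ± 0.26 to -1.76 ± 0.31 (SD, n = 3 each; log2 difference 0.93, adjusted p = 0.0154). Its signal was dim, and with normexp background correction the difference was 0.25 (adjusted p = 0.0970). Leaving out control replicate 1 or 3 also lost the call (adjusted p = 0.0601 and 0.0590). The brightly measured endothelial receptor Fzd4 was 4.16, 3.73 and 4.10 in control hearts, against 3.20, 3.97 and 3.87 in KO-labelled ones, which overlap (-0.32, 95% interval -0.88 to 0.25). Fzd6, Fzd7, Fzd8 and Fzd9 had differences of -0.38, 0.28, -0.09 and 0.20, and Fzd5 and Fzd10 had no probe to test. The other Fzd7 probe was above background on no array.

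Ror2, the receptor tyrosine kinase that binds Wnt5a, rose while Wnt5a fell. It was at -1.87, -1.18 and -1.36 in control hearts, against -0.62, -0.56 and -0.66 in KO-labelled ones, a 1.80-fold rise (0.85 ± 0.19 SE, adjusted p = 0.0156). The SD was 0.05 among KO-labelled hearts and 0.36 among controls (n = 3 each). With normexp the difference was 0.41 (adjusted p = 0.0170). The related receptor Ror1 lay above background on 1 array of each group. The co-receptors did not pass: Lrp5 differed by -0.28 (95% interval -0.63 to 0.06) and Lrp6 by -0.05 (-0.50 to 0.40; 0.19 with spike-in scaling), and the other Lrp6 probe by -0.14. Of the R-spondins only Rspo1 was measurable (0.24 ± 0.63 SE, adjusted p = 0.785).

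Among the genes called, the secreted antagonists held the largest differences, and they went in both directions. Of 5 genes of secreted Frizzled-related proteins 3 rose and 2 did not pass, while Wif1 fell (all features, 16.1% higher and 23.0% lower). Sfrp2 was at -0.38, 2.13 and 0.30 in control hearts, against 3.26, 4.01 and 4.20 in KO-labelled ones. Each KO-labelled heart exceeded each control, an 8.82-fold rise (3.14 ± 0.63 SE on the log2 scale, adjusted p = 0.0112), but control replicate 2 lay far above the other controls, and without it the difference was 3.86. Sfrp1 was at -1.28, 0.38 and -1.19 in control hearts, against 2.75, 1.25 and 1.92 in KO-labelled ones. Again control replicate 2 came nearest to the KO-labelled hearts, and the rise was 6.36-fold (2.67 ± 0.55 SE, adjusted p = 0.0119). Frzb, also called secreted Frizzled-related protein 3, stood at -1.40, -0.37 and -1.67 in control hearts, against 1.86, 0.96 and 1.38 in KO-labelled ones. This was a 5.82-fold rise (2.54 ± 0.38 SE, adjusted p = 0.00496). With normexp these rises were 2.84 for Sfrp2, 1.95 for Sfrp1 and 1.82 for Frzb, and all passed.

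Wif1, which binds Wnt proteins directly and is structurally unrelated to the Frizzled-like antagonists, was at 0.90, 1.08 and 0.57 in control hearts, against -3.21, -0.92 and -1.12 in KO-labelled ones. All KO-labelled hearts were lower, and KO-labelled replicate 1 was by far the lowest. The fall was 6.05-fold (-2.60 ± 0.59 SE on the log2 scale, adjusted p = 0.0163). Without KO-labelled replicate 1 it was -1.87 (adjusted p = 0.00508), with normexp -1.75, and without control replicate 1 it did not pass (-2.57, adjusted p = 0.0556). Sfrp5, another Frizzled-like antagonist, was at -0.12, 0.76 and -0.37 in control hearts, against -3.93, 0.24 and -1.99 in KO-labelled ones. The groups overlap through KO-labelled replicate 2, and the difference did not pass (-1.99 ± 0.98 SE, adjusted p = 0.148). The Sfrp5 probe was above background on 3 control arrays and 2 KO-labelled ones, so it entered the test through the controls alone. Without KO-labelled replicate 2, the heart that overlaps the controls, Sfrp5 differed by -3.05 and passed (adjusted p = 0.0166). It also passed with array weights (-1.72, adjusted p = 0.0163). Its difference was -0.97 without KO-labelled replicate 1, -1.07 with normexp and -0.86 in the deposited value table, with no call. Sfrp4 was above background on 2 control arrays and 3 KO-labelled ones, so it entered the test through the KO-labelled arrays alone. It varied widely within the controls, from -5.13 to -1.06, and did not pass. The value of -5.13, in control replicate 1, lies under the lowest signal called above background on that array (-4.33). Dkk3, a divergent Dickkopf protein, did not pass either. It ranged from 0.52 to 4.74 in the controls alone.

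**Figure D2:**
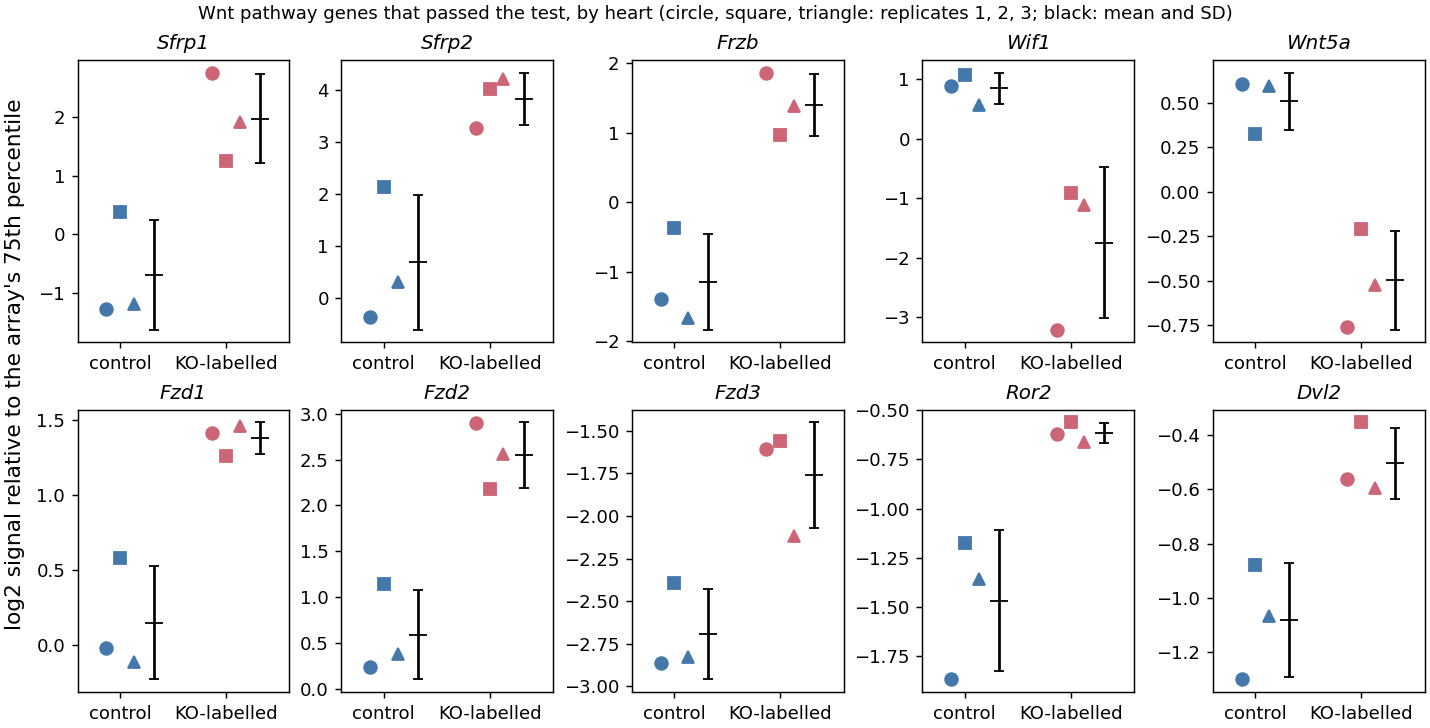
Log2 signal relative to each array's 75th percentile (vertical axes, 1 scale per gene) for the 10 genes that passed, by group. Blue and red symbols are single hearts (circle, square and triangle for replicates 1, 2 and 3), and black bars are the mean ± SD of 3 hearts. The groups do not overlap in any panel, and the square of control replicate 2 is the highest control for all 8 genes that rose.

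Promoter sequence was available for part of this set. RefSeq promoter windows on GRCm38.p6 matched 40 of the 58 genes (49 windows), among them 6 of the 10 called genes. The 250 bases before the start were searched on both strands for CTTTGA, the core of the site that TCF and LEF factors bind, and for ACGTG, the core of the hypoxia response element that HIF binds. ACGTG also matches inside CACGTG, the E-box of other factors. CTTTGA was found in 2 of these 6 windows and in 13.8% of 32851 windows of all genes, ACGTG in 2 of 6 and in 16.6%, and CACGTG in 6.02% of all. Over all 49 windows of the set, 7 held CTTTGA and 10 held ACGTG. The windows of the 6 called genes follow, so that antagonists, receptors and Dvl2, which holds 3 copies of CACGTG, can be set side by side. Each is written 5′ to 3′ along the gene, with matches in capitals.
Frzb (chr2:80447397-80447646, minus strand): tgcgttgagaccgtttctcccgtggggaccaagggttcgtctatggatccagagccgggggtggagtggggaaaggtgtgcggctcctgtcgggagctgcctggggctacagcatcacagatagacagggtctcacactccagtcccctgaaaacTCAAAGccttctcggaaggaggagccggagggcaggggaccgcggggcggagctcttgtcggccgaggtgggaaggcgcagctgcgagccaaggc
Sfrp2 (chr3:83766071-83766320, plus strand): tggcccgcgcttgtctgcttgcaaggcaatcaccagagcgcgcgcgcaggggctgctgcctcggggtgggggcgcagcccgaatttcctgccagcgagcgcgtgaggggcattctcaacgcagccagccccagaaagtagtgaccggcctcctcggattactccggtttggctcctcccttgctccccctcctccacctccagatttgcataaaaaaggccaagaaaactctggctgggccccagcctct
Fzd1 (chr5:4758217-4758466, minus strand): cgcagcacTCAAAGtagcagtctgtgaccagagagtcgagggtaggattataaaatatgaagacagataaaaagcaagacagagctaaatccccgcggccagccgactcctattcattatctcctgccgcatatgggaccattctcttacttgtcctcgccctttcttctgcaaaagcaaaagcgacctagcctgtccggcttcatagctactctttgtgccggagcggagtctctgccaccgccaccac
Ror2 (chr13:53286125-53286374, minus strand): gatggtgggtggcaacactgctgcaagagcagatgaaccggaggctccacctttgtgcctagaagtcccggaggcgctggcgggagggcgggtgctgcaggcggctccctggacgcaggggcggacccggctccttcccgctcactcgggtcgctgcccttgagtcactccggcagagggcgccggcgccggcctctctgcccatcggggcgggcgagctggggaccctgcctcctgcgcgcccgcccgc
Wif1 (chr10:121033754-121034003, plus strand): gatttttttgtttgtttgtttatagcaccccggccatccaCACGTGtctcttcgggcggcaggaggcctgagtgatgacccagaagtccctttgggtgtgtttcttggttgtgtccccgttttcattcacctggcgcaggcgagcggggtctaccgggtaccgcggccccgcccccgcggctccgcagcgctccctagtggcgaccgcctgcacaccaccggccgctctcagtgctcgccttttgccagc
Dvl2 (chr11:70000342-70000591, plus strand): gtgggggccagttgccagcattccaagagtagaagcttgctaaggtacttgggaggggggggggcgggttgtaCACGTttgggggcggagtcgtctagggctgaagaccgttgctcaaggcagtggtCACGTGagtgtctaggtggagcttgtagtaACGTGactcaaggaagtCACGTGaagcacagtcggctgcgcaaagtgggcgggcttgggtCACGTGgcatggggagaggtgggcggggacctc
The antagonist genes differ in this stretch. Frzb holds 1 CTTTGA match (read on the other strand, starting at position -95 from the gene start), Sfrp2 holds neither motif, and Wif1 holds 1 CACGTG starting at -210. Of the receptors, Fzd1 holds a CTTTGA match at -242 and Ror2 holds neither motif. A match is a description of these letters and was not tested for binding.

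Of the tested core genes inside the cell, only Dvl2 was called (all features, 16.1% higher and 23.0% lower). Ctnnb1, the gene of beta-catenin, was at 3.58, 3.54 and 3.54 in control hearts, against 3.33, 3.51 and 3.55 in KO-labelled ones. The groups overlap, and the difference was -0.09 (95% interval -0.36 to 0.18; 0.15 with spike-in scaling). Axin1, the scaffold of the destruction complex, differed by -0.33 (-0.66 to 0.00), with every KO-labelled heart below every control. That separation, also seen below for Dvl1, held for 33.1% of all features. Axin2, a gene that beta-catenin itself switches on in many tissues, lay above background on no array with either of its 2 probes. The transcription factors Tcf7l1 and Tcf7l2 differed by 0.23 (-0.09 to 0.54) and -0.26 (-0.65 to 0.13). Of the Dishevelled genes, which relay the signal from Frizzled receptors, Dvl2 rose. It was at -1.30, -0.88 and -1.07 in control hearts, against -0.56, -0.35 and -0.60 in KO-labelled ones (1.49-fold, adjusted p = 0.0247). The groups lie apart by little, and the call on Dvl2 was lost when control replicate 1 or 3 (adjusted p = 0.0860 and 0.0768) or KO-labelled replicate 2 or 3 (0.0634 and 0.0565) was left out. Dvl1 (-0.29, adjusted p = 0.0932) and Dvl3 (-0.16) did not pass, though every KO-labelled heart lay below every control for Dvl1.

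**Figure D3:**
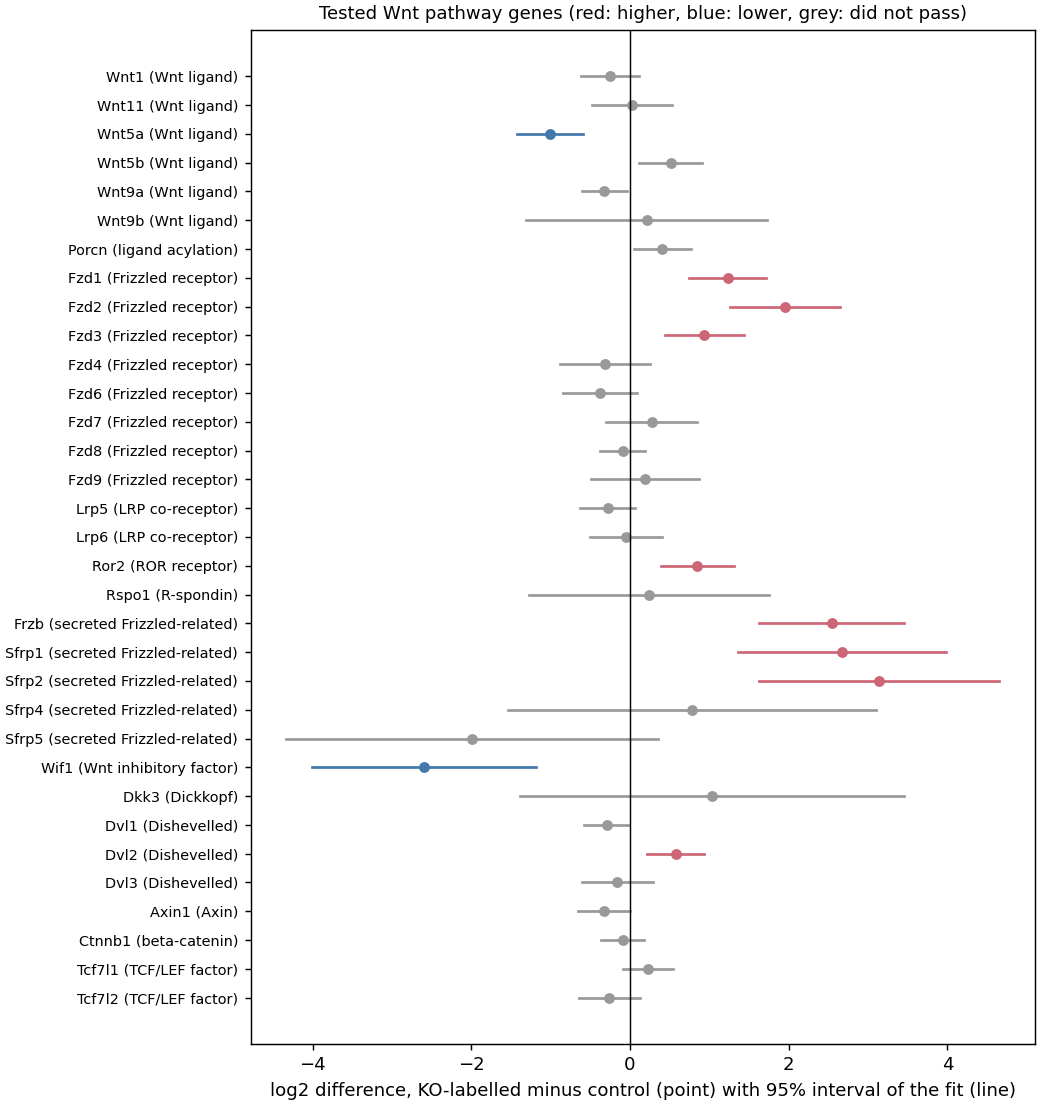
Log2 difference between KO-labelled and control hearts (points) with its 95% interval (lines) for the 33 tested genes, ordered by role from ligands at the top to nuclear factors at the bottom. Red marks the 8 genes called higher, blue the 2 called lower and grey the rest. The coloured points lie among ligands, receptors, antagonists and Dvl2, and the intervals of Sfrp4, Sfrp5 and Dkk3 are the widest.

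The rest of the pathway was read from 4 further lists, from which the genes above were left out. Their counts stand beside 16.1% higher, 23.0% lower and a median of -0.11 over all features. Among 17 tested genes of Wnt secretion and surface control, 6 rose and 2 fell (median 0.16). Cthrc1, 1 of the 6 and named after its values were seen, was above background on 1 control array and 3 KO-labelled ones. It entered the test through the KO-labelled arrays alone. Lgr6, a receptor for R-spondins, fell (-1.51, adjusted p = 0.00329), and so did Trabd2b, a membrane protease that inactivates Wnt proteins (-1.13, adjusted p = 0.00744). Sulf2, a sulfatase that trims heparan sulfate and so frees bound ligands, rose (0.85, adjusted p = 0.00431), as did Apcdd1, a membrane inhibitor of the pathway (1.12, adjusted p = 0.00452). Without control replicate 1 the rises in this list numbered 2, and without control replicate 3 they numbered 3. Of 23 genes of the destruction complex and its nuclear partners, 1 rose and 5 fell (median -0.10). Bcl9, a beta-catenin co-activator, was above background on 3 of 3 control arrays and 0 of 3 KO-labelled ones, so it entered the test through the controls alone. Its group means of -2.88 and -3.94 differed 2.09-fold (adjusted p = 0.0109). The lower mean rests on signals not called above background, so the size of the fall is uncertain. With normexp its log2 difference was -0.37. The others included casein kinase Csnk1e, lower (-0.59, adjusted p = 0.0265), and the corepressor Tle3, higher (0.50, adjusted p = 0.0240). Csnk1e did not pass under 7 of 19 alternatives and Tle3 under 6. The corepressor Tle4 was called lower (-0.62, adjusted p = 0.0219) on a probe above background on 3 control arrays and 1 KO-labelled array, but in the authors' deposited value table its difference was 0.02. It passed under 6 of 18 alternatives. Btrc (-0.75) and Bcl9l (-0.38), named after their values were seen, made up the rest of those that fell.

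Of 22 genes of the planar polarity and calcium branch, 4 rose, 5 fell and 13 did not pass (median -0.18), near the 39.1% of all features called. The polarity gene Vangl1 rose (0.62, adjusted p = 0.00780) and its partner Prickle1 fell (-1.05, adjusted p = 0.00803), while protein kinase C alpha, Prkca (0.59, adjusted p = 0.0112), and the calcium-responsive factor Nfatc4 (0.64, adjusted p = 0.0115) rose. The others that fell, named after their values were seen, were Camk2b (-0.86), Mapk8 (-0.75), Daam1 (-0.51) and Rock1 (-0.48). Averaging its probes lost the call on Prkca (adjusted p = 0.0733), as did leaving out the filter (0.0536). Of 15 genes known as beta-catenin targets in some tissue, 8 rose, 3 fell and 4 did not pass (median 0.70). Sox9 (2.70, adjusted p = 0.00253), the matrix gene Vcan (2.26, adjusted p = 0.00323) and the matricellular genes Ccn5 (2.04, adjusted p = 0.00512) and Ccn4 (2.73, adjusted p = 0.00616) rose. The 3 that fell, named here with the feedback inhibitors below after their values were seen, were Fgf9, Tnfrsf19 and Tbx3 (-0.97, -1.54 and -0.95). Tnfrsf19 was above background on 3 control arrays and 2 KO-labelled ones, so it entered the test through the controls alone. Nkd1 and Nkd2, the feedback inhibitors, had 0.42 and 0.70 and did not pass. Without control replicate 1, and also without control replicate 3, this list had 4 rises and 0 falls.

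Markers of connective tissue cells differed between the same hearts. The counts below stand beside 16.1% of all features called higher and 23.0% called lower. Among fibroblast markers 5 of 8 rose and none fell, and their summed signal was 412 to 757 in the controls and 1010 to 1120 in the KO-labelled hearts. Among markers of activated fibroblasts 7 of 8 rose, with 91.1 to 166 against 239 to 431. Of these, Cthrc1 and Tnc were each above background on 1 control array and 3 KO-labelled ones. Both entered the test through the KO-labelled arrays alone, and Cthrc1 was also counted in the list of Wnt secretion and surface control. Of the cardiomyocyte markers 6 of 8 fell, with 7200 to 9820 against 5070 to 6050. Macrophage markers (5 of 7 tested higher) went from 74.4 to 119 up to 143 to 236, and no endothelial marker of 8 passed. Of the smooth muscle and pericyte markers 3 rose and 4 fell. Their summed signal, in which the brightest markers weigh most, was 91.2 to 94.6 in the controls and 139 to 202 in the KO-labelled hearts. Control replicate 2 had the highest control level for 8 of the 8 Wnt genes that rose and for 66.7% of the 33 tested Wnt genes, called or not. The shares were 62.7% of all features called higher and 24.8% of all features tested. It was also the control highest in the fibroblast sum (757). The part of these cell markers in the Wnt gene differences was not tested. Without control replicate 2 all 8 genes passed, with log2 differences of 2.93 for Frzb, 3.21 for Sfrp1, 2.23 for Fzd2 and 1.45 for Fzd1.

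**Figure D4:**
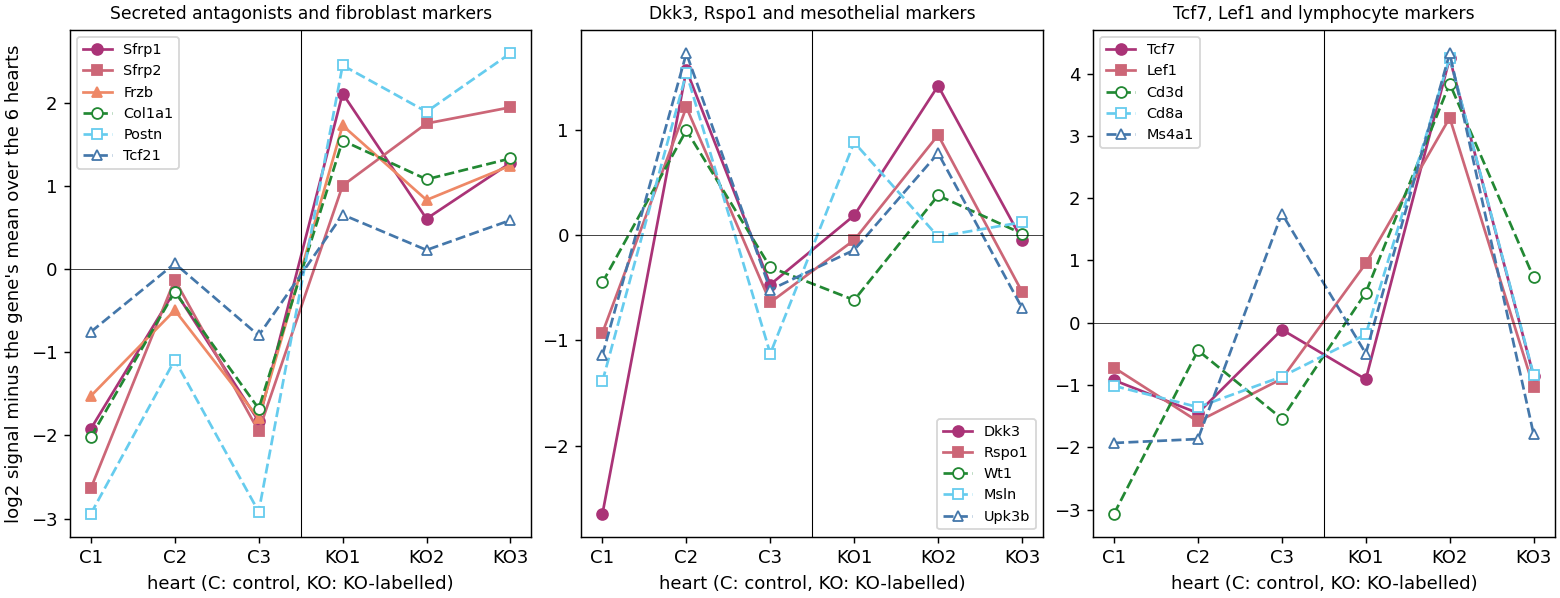
Log2 signal minus each gene's mean over the 6 hearts (vertical axes) for Wnt pathway genes (solid lines) and marker genes (dashed lines), by heart (C1 to C3 controls, KO1 to KO3 KO-labelled). The markers drawn were picked from their lists after their values were seen. Left, C2 is the highest control; middle, Dkk3 and Rspo1 peak at C2 and again at KO2; right, Tcf7 and Lef1 peak at KO2 with Cd3d, Cd8a and Ms4a1.

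Dkk3 and Rspo1 differed more from heart to heart than between the groups. Dkk3 was at 0.52, 4.74 and 2.70 in control hearts, against 3.35, 4.58 and 3.12 in KO-labelled ones, and Rspo1 at 0.02, 2.16 and 0.31 and at 0.90, 1.90 and 0.41. Both were highest in control replicate 2 and next in KO-labelled replicate 2. Of the 8 epicardial and mesothelial markers, 6 were highest in control replicate 2, and 5 of these were next highest in KO-labelled replicate 2. Wt1 was among the 5 (2.30 in control replicate 2 and 1.68 in KO-labelled replicate 2). Tbx18 and Aldh1a2 were highest in KO-labelled replicate 1, and Msln was highest in control replicate 2 (4.90) but next in KO-labelled replicate 1 (4.24). None of the 8 markers of that list passed between the groups. Without control replicate 2 the difference of Dkk3 was 2.08 and that of Rspo1 0.90, and neither passed. The part of these cells in the values was not tested.

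Lef1 and Tcf7, TCF factors that are also abundant in T cells, were visible in some KO-labelled hearts only. Lef1 did not exceed background in a control heart and was at -3.67, -1.33 and -5.66 in the KO-labelled hearts. Tcf7 was above background on 1 array, that of KO-labelled replicate 2, at -0.57, with -5.72 and -5.67 in the other KO-labelled hearts. Lymphocyte genes peaked in the same heart: Cd3d was at -1.88, 1.47 and -1.64 and Cd8a at -4.75, -0.31 and -5.40 in the 3 KO-labelled hearts. The part of lymphocyte RNA in these signals was not tested, and neither gene entered the comparison.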

How the data were processed

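Spot intensity values were taken from the deposited scanner files, which per the file headers were made with Agilent Feature Extraction 11.0.1.1, with local background subtracted and spatial trends removed. Flags for outlying spots and for signal well above background are other columns of these deposited files. The deposited table of log2 values (R 3.1.3 per the submitters' processing notes) served as an alternative only. Its scale was checked: 94.9% of its differences between arrays equalled scanner log2 differences plus a constant within 0.001. The authors centred it near 0 (column medians 0.09, -0.02, 0.07, -0.04, -0.05 and -0.02); how it was normalized is not given in the sources.

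Log2 processed signals were averaged over a probe's unflagged spots and set relative to the 75th percentile of their array. Of 55681 probes, 73 were left out because all spots were flagged on an array. RefSeq accessions named 26551 probes through the GRCm38.p6 gene table, and 29057 stayed unnamed. The array was designed on another build, so no probe positions are given. Probes well above background on all arrays of 1 group or both were kept, with the brightest probe per gene, and 20020 features were fitted in limma 3.58.1 (R 4.3.3). The fit was tested on simulated data. Hearts of the 2 groups lay in different columns of 1 slide, so position and group cannot be told apart. Every called member was named, and from each other list up to 4 called genes with the smallest p. Members and lists were chosen with earlier results of these data known. The alternatives were other background correction, scalings, filters, probe rules, variance models, array weights, the deposited table, a replicate block and leaving out each heart. Normexp used median spot signals in place of the mean signals first planned.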

Additional observations from a re-analysis of the deposited data

How the results depend on the processing

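Of the 10 called Wnt pathway genes, 5 (Frzb, Fzd1, Fzd2, Sfrp2 and Wnt5a) passed under all 19 alternatives, and the others kept their direction. Sfrp1 did not pass with the replicate block (adjusted p = 0.0506), and Ror2, Fzd3 and Dvl2 did not without a filter on dim probes (0.0538, 0.0516 and 0.0874). Of the 23 tested genes not called, 13 passed under at least 1 alternative. The counts of 8 higher and 2 lower became 13 and 10 with array weights, and ranged from 6 to 9 and from 1 to 3 when 1 heart was left out. The median difference of the tested genes was 0.44 with E1A spike-in scaling (7 spike-in probes) and -0.03 to 0.24 with a heart left out. The count over all features was 4345 without a filter, 13709 with array weights, 4854 with the replicate block and 3987 to 8673 with a heart left out. Same-numbered hearts did not deviate together (correlations -0.15, -0.13 and -0.10 across features). The positive values were control replicate 1 with KO-labelled replicate 3 (0.27), 2 with 1 (0.24) and 3 with 2 (0.24). Deviations within a group cancel out, so these values cannot decide whether hearts were paired. The main fit used no pairing. With the replicate block 7 genes were higher and 2 lower. Genes that were not called and turned their sign were Ctnnb1 (0.0302 with quantile scaling, 0.0498 with cyclic loess, 0.15 with spike-in scaling), Lrp6 (0.0628, 0.0857 and 0.19 in that order, 0.0189 with normexp), Fzd8 (0.0265 with cyclic loess, 0.15 with spike-ins), Dvl3 (0.0875 with spike-ins), Fzd7 (-0.0051 with normexp), Sfrp4 (-0.0939 with normexp), Wnt9b (-0.0245 with normexp) and Wnt11 (-0.0302 with normexp, -0.32 with array weights). Tle4 turned to 0.0202 in the deposited table. The cause of these turns was not tested. With a heart left out, Dkk3 ranged from -0.0297 to 2.08, Fzd9 ranged from -0.0553 to 0.41, Lrp6 ranged from -0.22 to 0.0883, Rspo1 ranged from -0.17 to 0.90, Sfrp4 ranged from -0.26 to 1.78, Wnt11 ranged from -0.17 to 0.24 and Wnt9b ranged from -0.20 to 0.99. For probes near background, as with Fzd3, Sfrp4 and Wnt9b, the signal limits what can be measured.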

Other observations

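Several Wnt pathway genes did not pass the filter for the comparison but were visible in part of the hearts. Dkk2, a Dickkopf protein, was above background on 0 of 3 control arrays and 2 of 3 KO-labelled arrays, with levels of -3.93, -4.40 and -5.42 against -4.67, -2.39 and 0.10. The spread is set by KO-labelled replicate 3. Dkk4 was above background on 0 of 3 and 2 of 3, at -5.84, -4.91 and -5.67 against -3.80, -1.42 and -5.09, with its highest value in KO-labelled replicate 2. Wnt8b was above background on 2 of 3 control arrays and 0 of 3 KO-labelled arrays by 1 of its 2 probes, at -5.16, -3.22 and -2.10 against -5.01, -4.00 and -5.45. Ror1 was at -4.07, -3.53 and -3.99 in control hearts, against -3.02, -3.09 and -3.04 in KO-labelled ones. None of these was tested, because none lay above background on all arrays of a group. Levels on arrays where a probe was not above background have little meaning beyond detection. No difference between the groups is read from the rest.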
